A study of Drosophila melanogaster with 12 samples.

Results

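BEAF-32, Adf1, G9a, Df31 and Pc are 5 Drosophila genes that encode chromatin and insulator proteins. They were taken by exact gene symbol from the deposited lists and score tables, and all 5 were found, of 16595 genes in all. Each lay on the list of 2000 genes that the simulation treats as alternatively spliced (AS list), and none on the list of 14595 other genes (non-AS list). The genes were selected on their scores and calls in these tables, so both are given as a description and were not tested.

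The data were RNA sequencing libraries generated by computer. They model S2 cells, a Drosophila line from embryos, in which siRNA lowers the splicing factor PSI. There were 3 libraries for each of 3 levels of simulated splicing change (20%, 40% and 60%), labelled with PSI siRNA, and 3 control libraries, labelled with non-targeting siRNA. No cell was treated, so the values show how 6 splicing programs scored genes whose true class was set in advance, and say nothing of PSI and chromatin in living cells. Each program gave 1 score per gene and level from 3 knockdown and 3 control libraries together, and all 3 levels share the same controls. No spread between libraries can therefore be computed, and the depth of the libraries is unknown. The tables hold no expression levels, so neither the labelled cell line nor the knockdown could be checked against its marker genes.

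Insulator proteins bind DNA at the borders of chromatin domains and limit contacts between neighbouring regulatory elements. Some histone methyltransferases and Polycomb proteins set and read marks that keep genes silent, while decondensation factors hold chromatin open. Many genes of these families make several messenger RNAs, by separate first exons, by shifted splice sites or by leaving an intron in the transcript. PSI is an RNA-binding protein best known for blocking a splice in the transposase transcript of the P element.

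The annotated transcripts of the 5 genes differ by different kinds of event, and these are set out first because the scores are read against them. They come from the Ensembl annotation of BDGP6.54 and not from dm3, the build that the submitters' processing notes name. BEAF-32 (FBgn0015602) encodes the boundary element-associated factor that binds insulators. It lies on arm 2R from 14770469 to 14772630, on the plus strand, and has 3 transcripts. Transcript BEAF-32-RA splices its own first exon over an intron of 970 bp to the last exon, while BEAF-32-RB and BEAF-32-RC start further downstream and use an intron of 157 bp that ends at the same acceptor. The 2 donors lie 813 nt apart, no intron is shared by all 3 transcripts, and the proteins have 283 and 282 residues with different amino-terminal exons.

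Adf1 (FBgn0284249) encodes a transcription factor with a MADF domain, first known for activating the alcohol dehydrogenase gene. It lies on arm 2R from 6662265 to 6668085, on the plus strand, with 4 transcripts and 3 distinct sets of introns, called intron chains here. Its first intron is 132 bp long in Adf1-RA and Adf1-RE and 120 bp in Adf1-RC, from donors 12 nt apart, and lies wholly inside the first exon of Adf1-RB. Adf1-RA and Adf1-RB encode 253 residues, Adf1-RC 262 and Adf1-RE 274. Adf1-RA and Adf1-RE have the same introns, and the coding region of Adf1-RE ends further downstream. The other introns, of 3962 and 59 bp, are in all 4 transcripts.

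G9a (FBgn0040372) encodes a histone lysine methyltransferase. It lies on the X chromosome from 245978 to 254650, on the plus strand, with 2 transcripts. Of its 9 introns, 8 are in both transcripts. Intron 6, of 60 bp at X:251542-251601, is spliced in G9a-RA and kept in G9a-RB. It lies within the coding region, its length is a multiple of 3, and the proteins have 1637 and 1657 residues. The transcripts also differ at their 3′ ends, G9a-RA ending at 254013 and G9a-RB at 254650.

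Df31 (FBgn0022893) encodes decondensation factor 31, a nucleosome-binding protein that helps keep chromatin open. It lies on arm 2L from 21626309 to 21629932, on the minus strand, with 3 transcripts and 2 intron chains. An intron of 108 bp at 2L:21629777-21629884 is spliced in Df31-RB and kept in Df31-RA and Df31-RF. It lies in the 5′ untranslated region, and all 3 transcripts encode the same 183 residues. The 3′ ends differ too: Df31-RF ends at 21626309, and Df31-RA and Df31-RB end at 21626860.

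Pc (FBgn0003042) encodes Polycomb, the chromodomain protein that reads the repressive histone mark laid down by Enhancer of zeste. It lies on arm 3L from 21306138 to 21318020, on the minus strand. The annotation gives it 1 transcript with 2 introns, of 314 and 9107 bp, and thus 1 intron chain and no annotated alternative. The labels do not say how the simulation altered splicing in AS-list genes with 1 annotated chain, and the transcripts it used may differ from these, so the absence of calls for Pc cannot be read as a missed change at a known site. The long intron lies in the 3′ untranslated region. BEAF-32, Adf1, Df31 and Pc each overlap 1 other annotated gene (asRNA:CR42254, lncRNA:CR45128, lncRNA:CR44993 and CG7632, in that order), so how reads in the overlaps were assigned could bear on their scores, and this was not tested. G9a overlaps none.

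**Figure D1:**
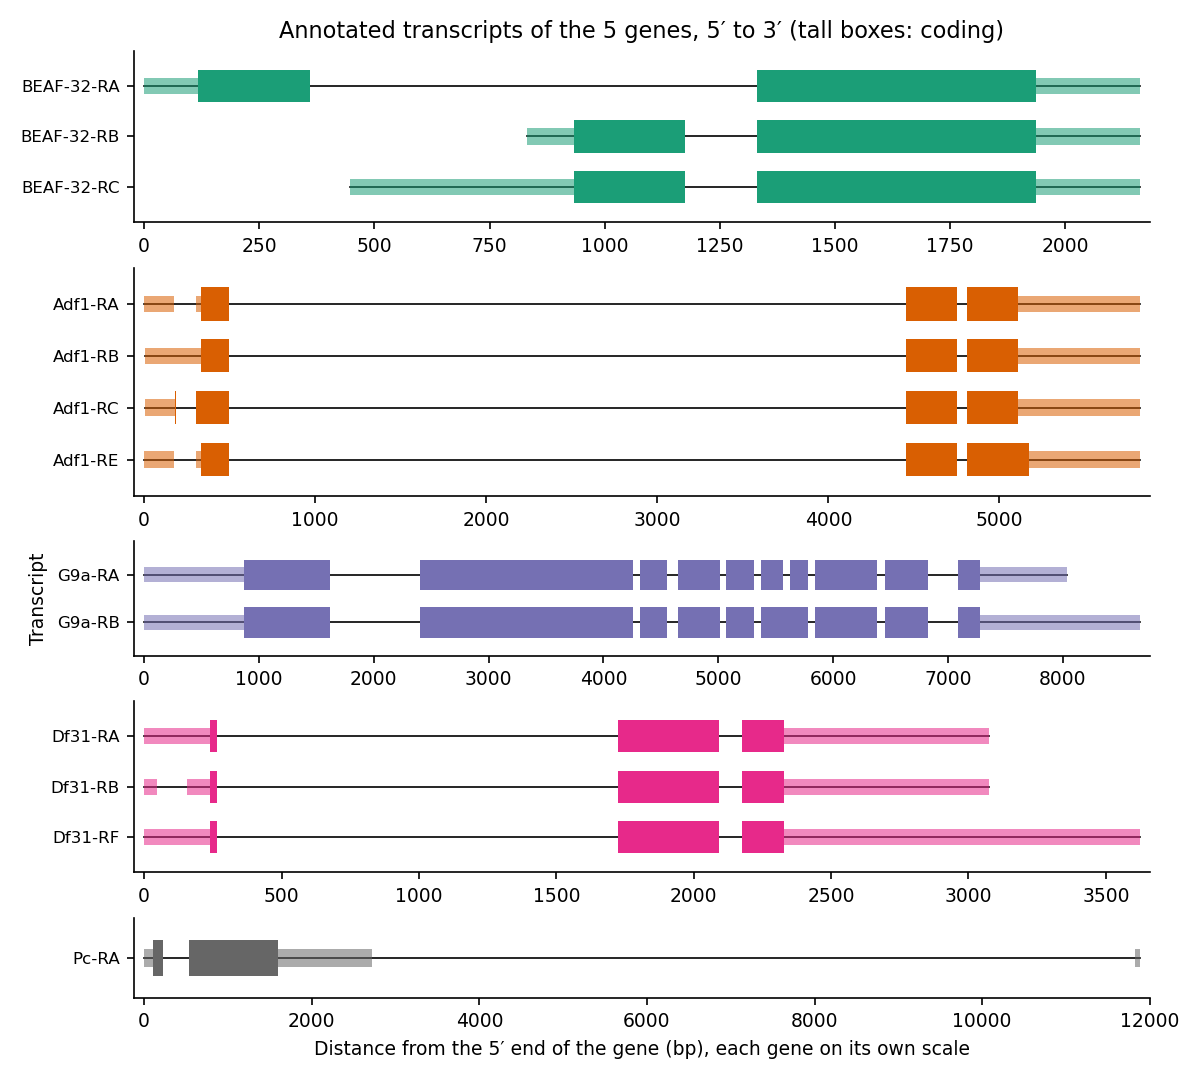
Annotated transcripts of BEAF-32, Adf1, G9a, Df31 and Pc drawn to scale from 5′ to 3′, with distance from the 5′ end of the gene in bp on each gene's own axis; tall boxes are coding exons, low boxes untranslated exons and lines introns. Adf1, G9a and Df31 each have an intron that another transcript keeps, BEAF-32 has separate first exons, and Pc has 1 transcript.

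Set against the other genes, an intron that another transcript keeps was annotated for 236 of the 1977 AS-list genes that matched the annotation (11.9%), while 8.76% of the matched genes outside that list had one. Adf1, G9a and Df31 all belong to these 236. More than 1 intron chain was annotated for 42.8% of the matched AS-list genes, while the share outside that list was 31.3%. Fewer than 2 chains, as for Pc, was thus the more common state on its own list.

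The 5 genes fell into 3 patterns. Adf1, G9a and Df31 were scored past the customary threshold by 4 or more of the 6 programs at each level, BEAF-32 by 2 or 3 programs and Pc by none. The threshold was 0.95 for the programs whose scores end at 1 and a Bayes factor of 10, the weight of evidence for a change, for MISO. The share of all 16595 genes that 4 or more programs called came to 1.58%, 2.40% and 2.60% at the 20%, 40% and 60% levels, beside 3 of these 5 genes each time. Of the AS list, 13.2%, 19.9% and 21.6% of genes reached 4 programs at the 20%, 40% and 60% levels. Since the genes were picked with scores known, nothing is read from their excess over these shares.

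JUM, which compares the use of splice junctions without an annotation, called 4 of the 5 genes at each level, all but Pc. Its calls took in 3.45%, 3.80% and 3.95% of all genes at the 20%, 40% and 60% levels. MAJIQ, which models local splicing variations, called 2 of the 5 at the 20% level (2.39% of all genes) and 4 at the 40% level (3.71%) and the 60% level (3.97%). rMATS, which counts reads over predefined event types, called Adf1, G9a and Df31 at each level and listed neither BEAF-32 nor Pc. Its calls covered 2.27%, 2.58% and 2.71% of all genes at the 20%, 40% and 60% levels.

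Whippet, which scores nodes of a splice graph, listed all 5 genes and called 3 at the 20% level (4.63% of all genes) and 4 at the 40% level (5.41%) and the 60% level (5.75%). Cufflinks, which assembles and compares transcripts, listed all 5 and called Adf1, G9a and Df31 at each level. Its calls made up 1.18%, 2.51% and 3.08% of all genes at the 20%, 40% and 60% levels. MISO, which weighs isoform ratios by Bayes factors, called none of the 5 at the 20% level (0.0121% of all genes) or the 40% level (0.0301%), and Adf1 alone at the 60% level (0.108%). Of the 30 scores possible per level, 24, 24 and 23 were listed and 15, 18 and 19 passed the threshold at the 20%, 40% and 60% levels.

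A second rule set the cutoff per table as the lowest score that at most 5% of the non-AS list reached. Genes that a table does not list counted as below every score, so the rule is lenient among listed genes. At the 20% level the JUM cutoff was 0.116, which 1325 of its 1508 listed genes reached. That of MAJIQ was 0.000542 (1361 of 1976 genes) and that of Whippet 0.72 (1596 of 3651). A detection by JUM thus says little more than that JUM lists the gene. Under it 20, 21 and 20 of the 30 scores were detections at the 20%, 40% and 60% levels, and Pc again had none. BEAF-32 with MAJIQ and Adf1 with Whippet, both at the 20% level, were added, while Df31 with MAJIQ at that level was not. With JUM 4 of the 5 genes were detected at each level, where 7.98%, 7.98% and 8.02% of all genes were. MAJIQ detected 3, 4 and 4 of them, beside 8.20%, 8.23% and 8.26% of all genes. Whippet detected 4 at each level, beside 9.62%, 9.95% and 10% of all genes.

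For rMATS and Cufflinks the 5 genes stood as they did at the customary threshold. rMATS detected Adf1, G9a and Df31 at each level, beside 5.42%, 5.44% and 5.94% of all genes at the 20%, 40% and 60% levels. Cufflinks detected the same 3 genes at each level, beside 3.48%, 4.37% and 5.11% of all genes. Neither program came up to the 5% rate. The rMATS detections took in 3.18%, 3.13% and 3.61% of the non-AS list at the 20%, 40% and 60% levels. With Cufflinks any score above 0 was a detection, which took in 0.863%, 1.18% and 1.54% of that list. MISO lists so few genes that any listing counts as a detection: it held 3, 3 and 2 of the 5 at the 20%, 40% and 60% levels, and 1.90%, 1.98% and 1.98% of all genes.

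**Figure D2:**
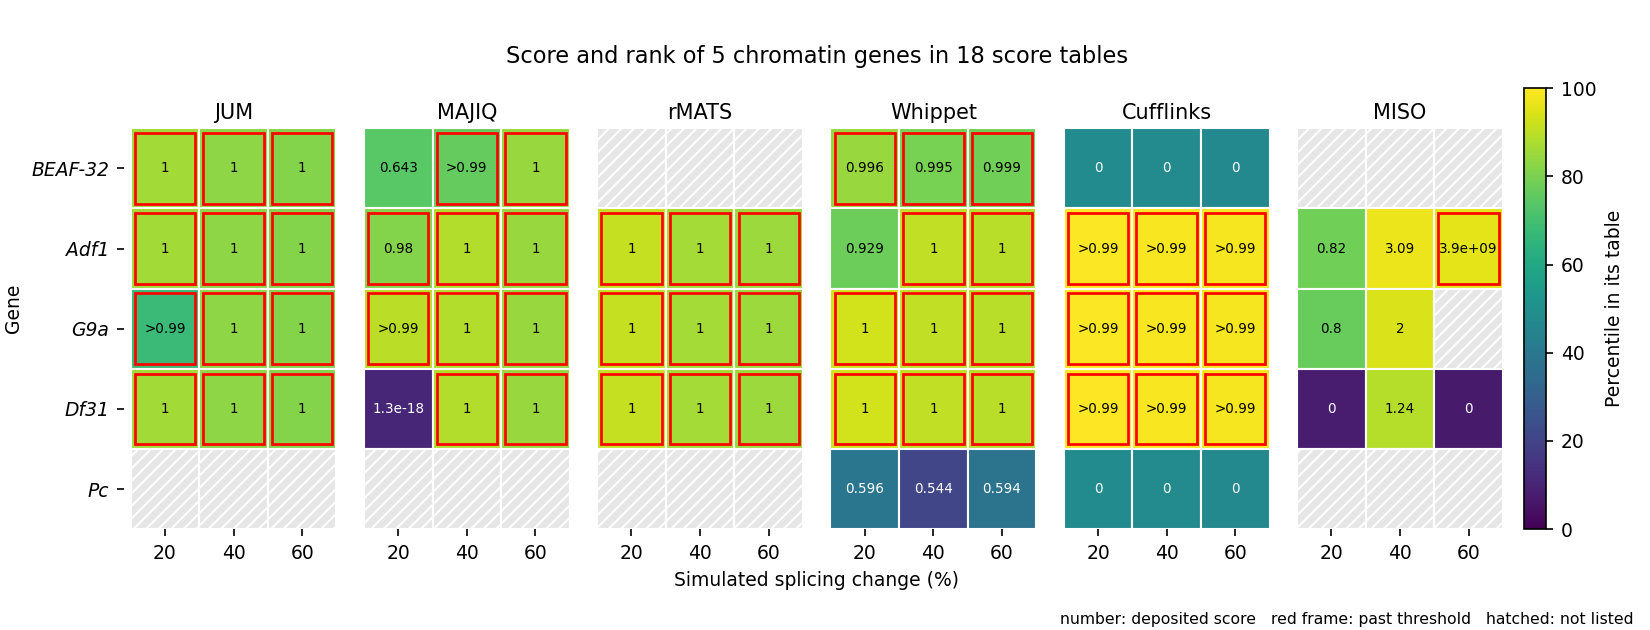
Deposited score (number) and percentile among the genes of the same table (colour, 0 to 100, ties at their middle) for 5 genes in 6 programs at the 20%, 40% and 60% levels; red frames mark scores past the threshold and hatched cells genes that a table does not list. Adf1, G9a and Df31 have frames in most columns, BEAF-32 in JUM, MAJIQ and Whippet, and Pc has none.

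BEAF-32 was called by JUM, MAJIQ and Whippet and by no other program. Its JUM score in the authors' deposited tables was 1 at the 20%, 40% and 60% levels, the top value, which 420, 517 and 560 other genes shared. The MAJIQ score in the authors' deposited tables was 0.643, 0.999999999999 and 1 at the 20%, 40% and 60% levels. MAJIQ thus passed BEAF-32 at the larger changes and not at the 20% level, where 516 of 1976 genes scored higher. Whippet gave it 0.996, 0.995 and 0.999 at the 20%, 40% and 60% levels in the authors' deposited tables, and 557, 745 and 768 genes scored higher.

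The Cufflinks score of BEAF-32 in the authors' deposited tables was 0 at all 3 levels. That value was shared by most of the table: 75.2%, 69.6% and 65.8% of the AS-list genes that Cufflinks listed stood at 0 at the 20%, 40% and 60% levels. BEAF-32 was not in any rMATS or MISO table. The same set of calls, by JUM, MAJIQ and Whippet and no other, was found for 123 other AS-list genes at the 40% level (6.15%) and 118 at the 60% level (5.90%).

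Adf1 was listed in all 18 tables, and 15 of its scores passed the threshold. JUM and rMATS gave it 1 at each level in the authors' deposited tables. Its MAJIQ score there was 0.979 at the 20% level and 1 at the 40% and 60% levels. Whippet scored it 0.929, 1 and 1 at the 20%, 40% and 60% levels in the authors' deposited tables, so the 20% level fell short of 0.95. At that level 99 non-AS-list genes had a Whippet score as high or higher, 4.71% of those listed, against 7 at the 40% level and 11 at the 60% level.

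Cufflinks scored Adf1 0.996797, 0.999637 and 0.999741 at the 20%, 40% and 60% levels in the authors' deposited tables. The last 2 are the highest Cufflinks scores of their tables, shared with 314 and 414 other genes. The MISO Bayes factor of Adf1 in the authors' deposited tables was 0.82, 3.09 and 3901939282.49 at the 20%, 40% and 60% levels. In the MISO ranking 67 of 315 genes stood higher at the 20% level, 10 of 328 at the 40% level and 13 of 329 at the 60% level. Its rank was thus about as high at 40% as at 60%, although only the 60% value passed 10. At the 60% level 18 MISO genes reached a Bayes factor of 10, of which 12 were on the AS list. Adf1 was 1 of 7 AS-list genes called by all 6 programs at that level.

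G9a was called by JUM, MAJIQ, rMATS, Whippet and Cufflinks at each of the 3 levels. At the 20% level, where 89 AS-list genes (4.45%) were called by 5 programs and none by 6, G9a was the only one of the 5 genes with 5. Its JUM score in the authors' deposited tables was 0.998857 for the 20% change and 1 for the 40% and 60% changes. Its MAJIQ score there was 0.9998 at the 20% level and 1 at the other two. rMATS and Whippet gave G9a 1 at every level in the authors' deposited tables. Cufflinks scored G9a 0.996797, 0.999637 and 0.999741 at the 20%, 40% and 60% levels in the authors' deposited tables, the same 3 values as Adf1.

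The MISO Bayes factor of G9a in the authors' deposited tables was 0.8 and 2 at the 20% and 40% levels, and MISO did not list G9a at 60%. Of 262 genes that MISO listed at both smaller changes, 15 (5.73%) were absent from its table at the 60% level.

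Df31 was listed in all 18 tables and passed the threshold in 14. Its scores were 1 with JUM, rMATS and Whippet at each level in the authors' deposited tables. Cufflinks gave it 0.998743, 0.999637 and 0.999741 at the 20%, 40% and 60% levels in the authors' deposited tables. Each was the highest score of its table, shared with 90, 314 and 414 other genes. With MAJIQ the score of Df31 in the authors' deposited tables was 1.32e-18 at the 20% level, and 1 at the 40% and 60% levels. That low value stood below 1748 of the 1976 genes of the table and was shared by 37 other genes, of which 1 was on the AS list.

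Other AS-list genes also had low MAJIQ scores at the 20% level, in a comparison drawn up after these scores were seen. In all, 74 of 729 AS-list genes scored at or under the value of Df31, Df31 itself included. Of 572 AS-list genes that MAJIQ called at the 40% and 60% levels and listed at the 20% level, 200 (35.0%) scored under 0.95 at the 20% level and 12 (2.10%) under 0.05. Df31 was the lowest of these 12. JUM, rMATS, Whippet and Cufflinks all called Df31 at the 20% level. The MISO Bayes factor of Df31 in the authors' deposited tables was 0 at the 20% level, 1.24 at the 40% level and 0 at the 60% level, so it did not follow the size of the change. A Bayes factor of 0 was the lowest of the table, held by 48 other genes at the 20% level and 44 at the 60% level.

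Pc was listed by Whippet and Cufflinks only. Its Whippet score in the authors' deposited tables was 0.596 at the 20% level, 0.544 at the 40% level and 0.594 at the 60% level. Whippet scores began at 0.5, and 35.6%, 35.1% and 33.7% of its listed AS-list genes scored under 0.6 at the 20%, 40% and 60% levels. Most of the listed non-AS-list genes scored as high as Pc or higher: 57.7% at the 20% level, 78.8% at the 40% level and 58.3% at the 60% level. With Cufflinks the score of Pc in the authors' deposited tables was 0 at all 3 levels. Pc shared its lack of calls with 1228, 1117 and 1064 other AS-list genes at the 20%, 40% and 60% levels, 61.4%, 55.9% and 53.2% of the list.

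**Figure D3:**
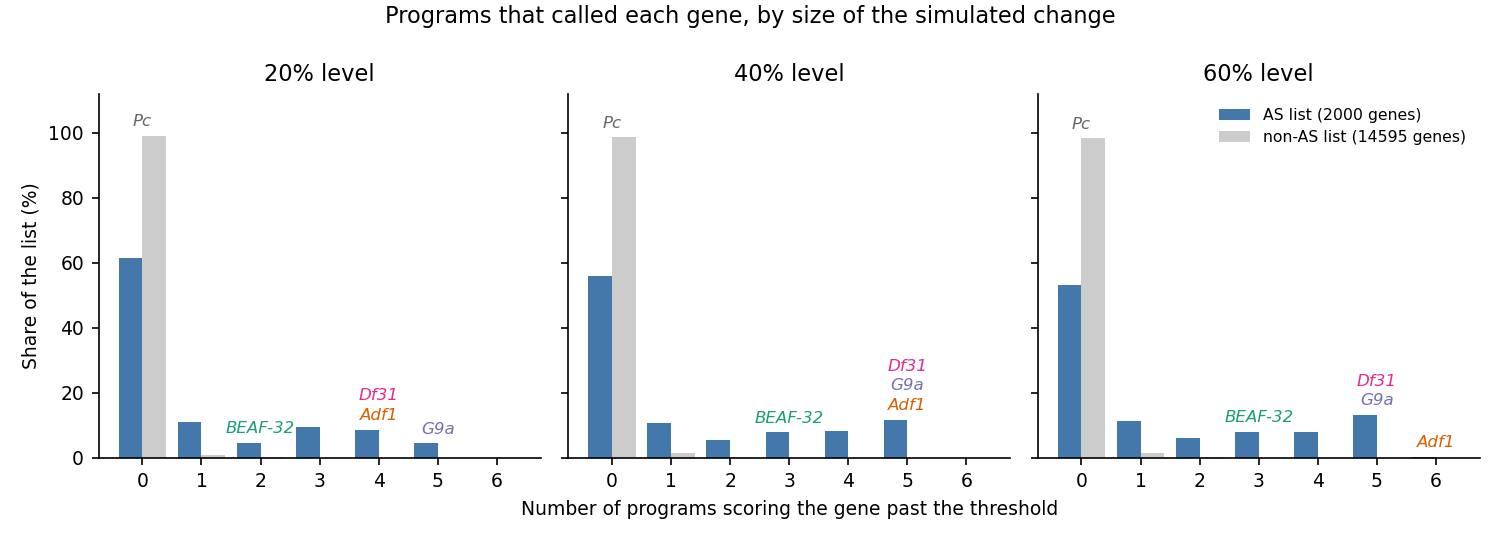
Share of the AS list (blue) and of the non-AS list (grey), in percent, by the number of programs that scored a gene past the threshold, for the 20%, 40% and 60% levels, with the 5 genes written over their number. Pc stands at 0 programs throughout with most of both lists, BEAF-32 at 2 or 3, and Adf1, G9a and Df31 at 4 to 6, where non-AS-list genes make up at most 0.0137% of their list.

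The genes were also placed by the likeness of their whole profile, the mean absolute difference in percentile over the 18 tables with unlisted genes at 0. Adf1 and G9a lay 7.90 percentile points apart, G9a and Df31 9.93 and Adf1 and Df31 14.2. Every other pair was at least 34.8 apart, and Adf1 and Pc were 75.1 apart. The genes nearest to Adf1 were Pka-R2 (2.03), CG6701 (2.14) and iPLA2-VIA (2.84). Nearest to G9a were Ect4 (3.02), Ehbp1 (4.39) and Chc (4.61), and nearest to BEAF-32 were Dic1 (1.63), cert (2.13) and bip1 (2.24). Df31 had no such close neighbour, and its nearest genes were Baldspot (5.99), Piezo (7.0) and CG5174 (7.39). All of these were on the AS list. For Pc they were CG42526 (0.254) on the AS list and Rad51C (0.290) and DNApol-epsilon (0.328) on the non-AS list. A table that lists neither gene of a pair adds no difference, so distances are not fully comparable across the 5 genes. Df31 was listed in 18 tables, BEAF-32 in 12 and Pc in 6.

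The share of AS-list genes called also differed by annotated structure. The groups below were drawn after the scores were seen, and the shares are given without a test. Of the 236 AS-list genes with an intron that another transcript keeps, the group of Adf1, G9a and Df31, 4 or more programs called 39.8%, 55.5% and 58.1% at the 20%, 40% and 60% levels. This group holds every such gene whatever other events its transcripts show, as the alternative donor of Adf1. Comparisons between the groups therefore mix the kind of event with the number of events. The group of BEAF-32 held 258 AS-list genes whose intron chains differ by first exons or donors only, with no alternative acceptor, skipped exon or kept intron. Of these, 11.6%, 20.2% and 24.8% were called by 4 or more programs at the 20%, 40% and 60% levels. The remaining 352 AS-list genes with 2 or more chains have no kept intron. Of these 352, 38.1%, 58.5% and 63.4% reached 4 programs at the 20%, 40% and 60% levels. Their share lay below that of the group of Adf1, G9a and Df31 at the 20% level and above it at the 40% and 60% levels. Whether a kept intron bears on the calls was not tested.

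rMATS and Cufflinks, which with MISO did not call BEAF-32, called 19.0% and 23.3% of its group at the 60% level, against 58.1% and 61.4% of the group with a kept intron. JUM called 55.8% and 66.1%, MAJIQ 56.6% and 78.0%, and Whippet 60.9% and 85.2% of the same groups. rMATS listed 25.6% of the group of BEAF-32 at all. In the remaining multi-chain group JUM called 72.2% and rMATS 62.5% at the 60% level, both above the group with a kept intron, while MAJIQ (74.7%), Whippet (79.8%) and Cufflinks (55.4%) called less of it. The group of Pc, with introns but 1 chain, held 935 AS-list genes. No program called 84.8%, 81.0% and 78.4% of them at the 20%, 40% and 60% levels. Of this group JUM listed 1.93%, rMATS 1.28% and MAJIQ 9.41% at the 60% level, while Whippet listed 73.6% and called 20.6%. How these genes were altered in the simulation is likewise not stated in the labels.

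**Figure D4:**
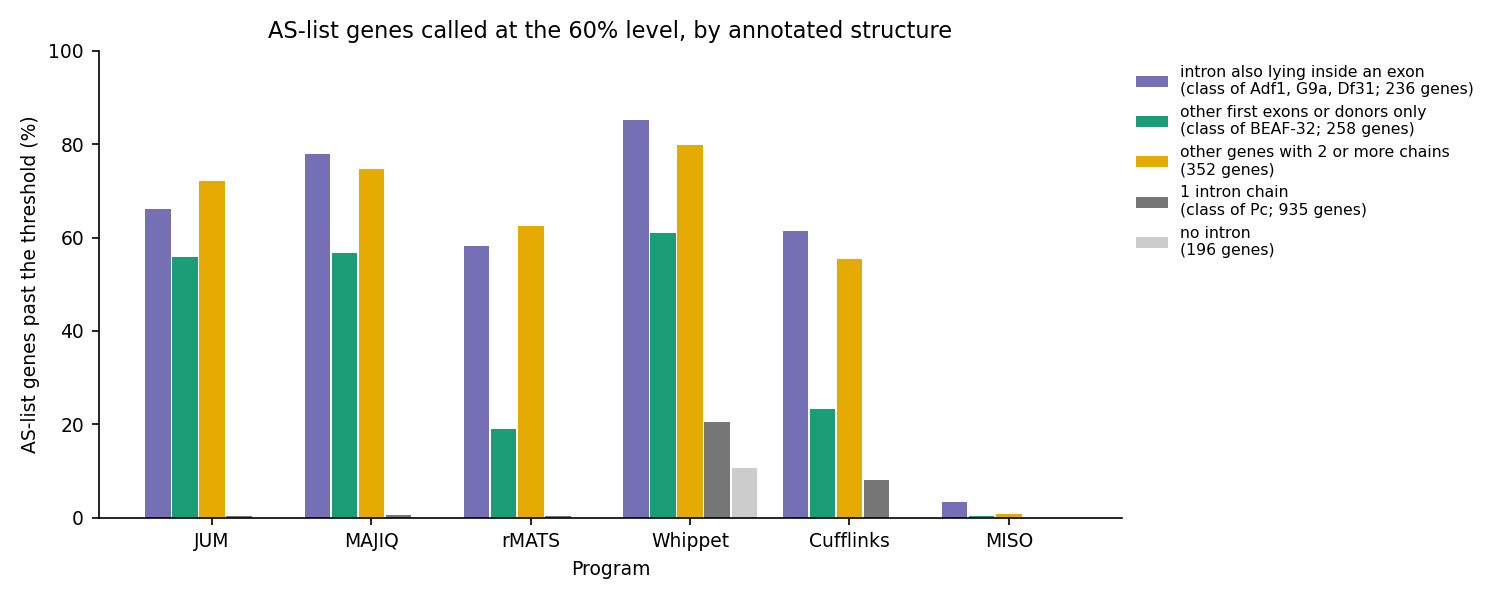
Share of AS-list genes past the threshold at the 60% level, in percent, by program, for genes with an intron that another transcript keeps (236 genes), with other first exons or donors only (258), with 2 or more chains otherwise (352), with 1 intron chain (935) and with no intron (196). The kept-intron group has the tallest bar with MAJIQ, Whippet, Cufflinks and MISO and the group of 352 with JUM and rMATS, and the bars of the group with 1 chain stay under 1% outside Whippet (20.6%) and Cufflinks (8.13%).

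Lists of 9 kinds of chromatin gene were then looked up, to set the 5 genes beside others of their families. Of 123 further genes, 119 were found on the AS or non-AS list, 114 of them also in 1 or more score tables, and 22 were AS-list genes (18.5%), where 12.1% of all genes are. Without regard to list, 14.3%, 15.1% and 18.5% of the 119 were called by 1 or more programs at the 20%, 40% and 60% levels, where the shares of all genes were 5.65%, 6.66% and 7.18%. Of the 22 on the AS list, 14, 15 and 16 were called by 1 or more programs at the 20%, 40% and 60% levels (63.6%, 68.2% and 72.7%, where the whole AS list had 38.6%, 44.1% and 46.8%). By 4 or more programs 3, 5 and 7 were called (13.6%, 22.7% and 31.8%), near the 13.2% and 19.9% of the AS list at the 20% and 40% levels and above its 21.6% at the 60% level. Their median was 7.5 tables past the threshold of 18, while the median over the AS list was 0. The lists were drawn up with earlier results of these data known, and no set test was made.

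Among insulator proteins 6 of 19 lay on the AS list, BEAF-32 included, and all 6 were called by 1 or more programs at each level. The BTB protein lolal passed the threshold in 14 tables, the insulator protein mod(mdg4) in 12, Zif in 10 and the zinc finger protein Clamp in 9. BEAF-32, with 8, stood below these 4 and above the remaining AS-list insulator gene, with 6. Like BEAF-32, Clamp was called by JUM, MAJIQ and Whippet alone. Clamp, however, was listed in 9 tables, all of these programs, whereas Cufflinks listed BEAF-32 and scored it 0. The Clamp scores in the authors' deposited tables were 1 throughout except for MAJIQ at the 20% level (0.999999999291).

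Of 8 transcription factors with MADF domains, 4 lay on the AS list. Adf1 passed the threshold in 15 tables, hng3 in 4, Coop in 1 and hng1 in none. hng1 has no annotated intron and was in no table. Among 13 histone lysine methyltransferases only G9a and Hmt4-20 were on the AS list, with 15 and 9 tables. Of 8 demethylases, Kdm2 passed in each of the 15 tables that list it and JHDM2 (now Kdm3) in none of 10. The Kdm2 scores in the authors' deposited tables were 1 with JUM, rMATS and Whippet at each level, and 0.9898, 1 and 1 with MAJIQ at the 20%, 40% and 60% levels.

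Df31 was set beside 12 other histone chaperones and decondensation factors, of which 1, the nucleoplasmin Nlp, was on the AS list. Nlp passed the threshold with Whippet alone, scoring 1 at each level in the authors' deposited tables, and has 1 intron chain. Of 21 Polycomb group genes, 5 lay on the AS list. The deubiquitinase gene calypso passed in 12 tables, ph-d in 9, Scm in 5, and Pc and esc in none. The gene esc, a subunit of the complex that methylates histones for Polycomb, has 1 intron chain as Pc does, and it too was listed by Whippet and Cufflinks only. Scm also has 1 intron chain and was listed by the same programs, but it was called by Whippet at each level and by Cufflinks at the 40% and 60% levels. Of 21 Trithorax group and remodeler genes, 3 were on the AS list (polybromo, Bap55 and dalao), and none of them was called in any table.

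Of 9 heterochromatin proteins 1 was on the AS list, HP5, with 9 tables. Of 13 deacetylases and acetyltransferases 2 were, the acetyltransferase Tip60 with 10 tables and HDAC6 with 9. Over all these lists, 12 of the further AS-list genes have 2 or more intron chains, of which 10, 11 and 11 were called by 1 or more programs at the 20%, 40% and 60% levels. Another 9 have 1 chain or no intron, of which 3, 3 and 4 were called, all by fewer than 4 programs. The same shares over the AS list were 71.3%, 79.6% and 82.6% with 2 or more chains and 13.9%, 17.3% and 19.7% with 1 or none.

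**Figure D5:**
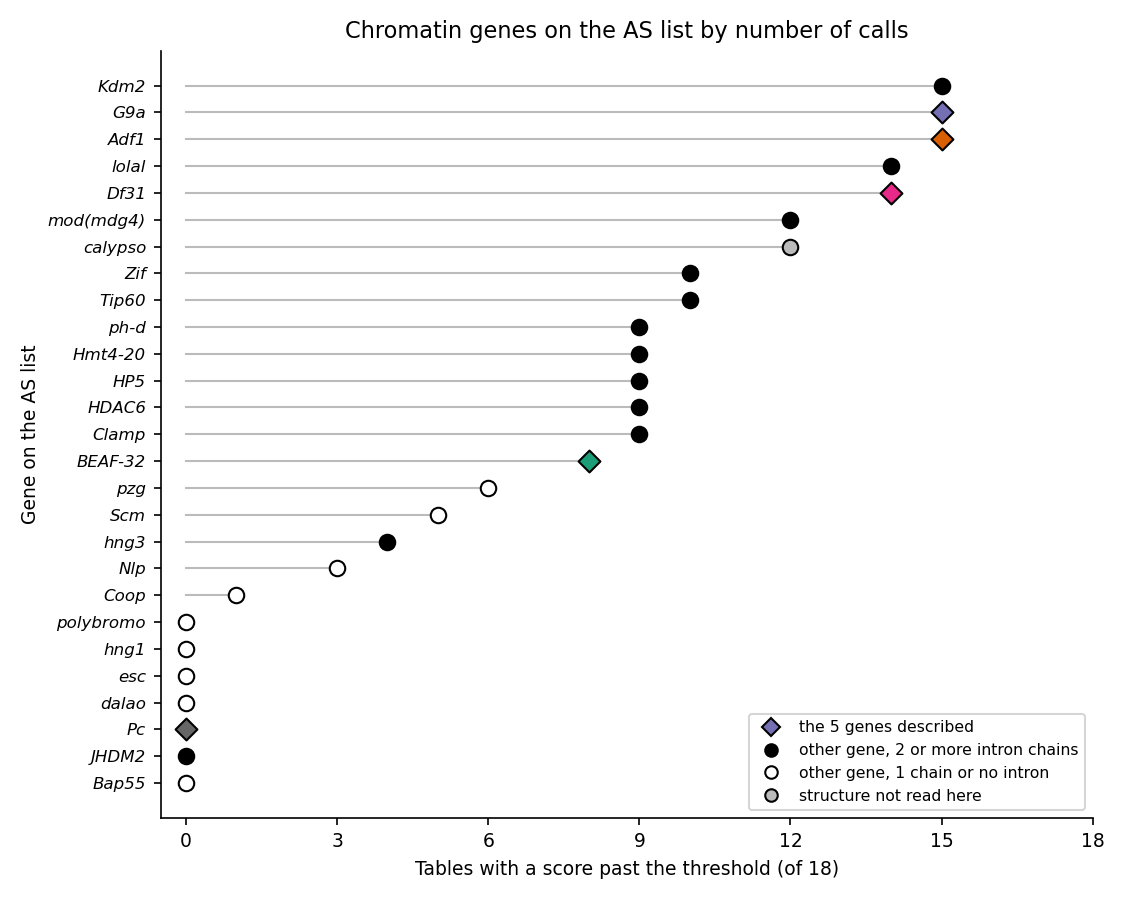
Number of the 18 tables in which each chromatin gene on the AS list scored past the threshold (27 genes, most calls at the top); diamonds are BEAF-32, Adf1, G9a, Df31 and Pc, filled circles other genes with 2 or more intron chains, open circles other genes with 1 chain or no intron, and the grey circle a gene whose structure was not read. Adf1 and G9a (15 tables) stand at the top with Kdm2, and Pc is 1 of 7 genes with no call.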

How the data were processed

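The series holds 12 simulated libraries in 4 groups: PSI siRNA at the 20%, 40% and 60% levels and a control, 3 each. STAR 2.5.4b, Cufflinks and build dm3 stand in the submitters' processing notes, with no role. Which simulator was used, and with which program settings, is not given in the sources used here. Each of 18 tables (6 programs, 3 levels) holds 1 score and 1 class label per gene as the authors deposited them, and scores were used as deposited. Their scale is not labelled. From the values, MISO was taken to give Bayes factors, MAJIQ and Whippet probabilities, and the other programs the complement of a p-value or q-value, so 1 threshold need not be equally strict across programs. That reading leaves 9, 10 and 8 rMATS scores below 0 (down to -197) at the 20%, 40% and 60% levels unexplained. They count as not called, and none belongs to the 5 genes.

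A gene was called at a score of 0.95 or more (MISO 10). Percentiles count ties at their middle. The 5 genes, the gene lists and the rule for named genes were chosen with earlier results of these data known. Per list the rule took up to 4 AS-list genes, and up to 4 called non-AS-list genes, by number of calls, and per gene the 3 nearest profiles. Structure groups were drawn after the scores were seen. Symbols were matched by current or unique older name to Ensembl release 115 (16396 of 16595 genes, 98.8%). No test was run, since each score pools all libraries. Percentiles and cutoffs were tested on simulated data. Python 3.11.15, numpy 2.4.6, pandas 2.3.3, scipy 1.17.1 and matplotlib 3.10.9 were used.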

Additional observations from a re-analysis of the deposited data

How the results depend on the processing

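The 15, 18 and 19 scores of the 5 genes past the threshold at the 20%, 40% and 60% levels ranged from 14 to 20, 18 to 21 and 18 to 20 over thresholds of 0.99 and 0.9, MISO Bayes factors of 5 and 20, false positive rates of 5% and 1%, and the omission of MISO. At 0.99 and the 20% level Adf1 was called by 3 programs, leaving 2 genes with 4 or more. Pc was called under none of these settings. At the 5% rate every gene in a MISO table counts as detected, and so does every gene with a Cufflinks score above 0. Most genes that JUM, MAJIQ or rMATS lists count as detected too. The count of further chromatin genes called by 1 or more programs was 17, 18 and 22 at the 20%, 40% and 60% levels. It became 43, 44 and 49 at the 5% rate and 24, 31 and 32 at the 1% rate. The 5% rate lowered the cutoff of every program at each level, for JUM to between 0.116 and 0.158. The 1% rate lowered that of most programs. With exact symbols, 20 and not 22 of the further chromatin genes lay on the AS list. No paired analysis was possible because each score pools all libraries of a level, which also leaves the replicates impossible to leave out one by one and the depth unknown.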

Other observations

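Some chromatin genes of the non-AS list also had scores past the threshold. Mi-2, a nucleosome remodeler, had MAJIQ scores of 0.999999999999, 0.999999999947 and 0.999999999968 at the 20%, 40% and 60% levels in the authors' deposited tables, and no other program called it. Psc, a Polycomb group gene, had Whippet scores of 1, 1 and 0.998 at the 20%, 40% and 60% levels in the authors' deposited tables, and a JUM score of 1 at the 60% level. CG7911 (now Nph), of the nucleoplasmin family as Nlp is, had Whippet scores of 1, 0.951 and 0.996 at the 20%, 40% and 60% levels in the authors' deposited tables. At the 60% level dre4, a histone chaperone, had a MISO Bayes factor of 1e+12 in the authors' deposited table, and was called by no other program. Also at that level escl had a Whippet score of 0.968 and nej a JUM score of 0.963131 in the authors' deposited tables. In all, 3, 3 and 6 of 97 such genes were called at the 20%, 40% and 60% levels (3.09%, 3.09% and 6.19%), against 1.14%, 1.53% and 1.75% of the whole non-AS list.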
